A study of Mus musculus with 47 samples.

Results

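The genes described here are 37 genes that act when a cell copies its DNA and divides. They were taken by symbol from the hippocampal count table, which lists 35486 genes, and all 37 were found. By role, 12 act in S phase, 24 in mitosis, and 1, Ccnd1, is a cyclin of G1. The count filter left 17778 genes for testing, among them 26 of the 37: all 12 S-phase genes, 13 of the 24 mitosis genes and Ccnd1.

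The study sequenced messenger RNA from the hippocampus of 47 male C57BL/6J mice, 1 library per mouse. Young Veh (13 mice aged 3.75 to 5.26 months) and Old Veh (12 mice, 17.47 to 19.97 months) had received vehicle. Young PF4 (12 mice, 4.08 to 5.03 months) and Old PF4 (10 mice, 17.4 to 20.23 months) had received mouse platelet factor 4, a chemokine released from platelets, by daily intraperitoneal injection. All 4 groups share strain and sex, and no randomization method was used. Every old library has a lower library number in its sample title than every young library. Age differences therefore cannot be told apart from differences that follow this numbering. Libraries held 2242879 to 21112908 counts (median 10374007), and 8 libraries were under 5000000 counts (1 Young Veh, 2 Young PF4, 4 Old Veh and 1 Old PF4). A count of 3, the upper limit allowed by a count of 0, corresponds to 0.142 to 1.34 CPM (counts per 1000000 of a library's total) across libraries. Such limits cover counting error only.

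In the adult hippocampus, cells divide mainly in the subgranular zone of the dentate gyrus, where neural stem cells give rise to progenitors and new granule neurons, and this neurogenesis declines with age in mice. Oligodendrocyte precursors, microglia and endothelial cells can divide as well, so reads from division genes in whole tissue do not belong to neural progenitors alone. S-phase genes encode the replicative helicase, the sliding clamp of the polymerases and the enzymes that make DNA precursors, and mitosis genes encode kinases, spindle and kinetochore proteins, condensin and the machinery of protein destruction at anaphase. In bulk tissue, fewer cells of a type and less RNA per cell cannot be told apart.

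Transcription of many mitosis genes is periodic and is known to depend on CCAAT boxes and on a CHR (cell cycle genes homology region) element near the start site. Promoters are shown for Top2a and Ube2c, which were lower in old mice in a test across all genes (Ube2c only where no count filter was used), and for Mki67, the most widely used marker of dividing cells, which was not. Capitals mark matches to the CCAAT box (CCAAT or its complement ATTGG) and to the CHR (TTTGAA, its complement TTCAAA, or TTCGAA, which reads alike on both strands). The sequences are from RefSeq on GRCm38.p6, 5′ to 3′ on the strand of the gene, and end before the first annotated base of the gene: Top2a at chr11:99024190-99024439 (minus strand), Ube2c at chr2:164769679-164769897 (plus strand) and Mki67 at chr7:135716380-135716629 (minus strand).
Top2a: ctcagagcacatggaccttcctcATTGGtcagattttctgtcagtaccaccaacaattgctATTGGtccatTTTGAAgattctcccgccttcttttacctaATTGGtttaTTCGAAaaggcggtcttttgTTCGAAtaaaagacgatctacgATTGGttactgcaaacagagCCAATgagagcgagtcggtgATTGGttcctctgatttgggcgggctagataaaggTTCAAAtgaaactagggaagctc
Ube2c: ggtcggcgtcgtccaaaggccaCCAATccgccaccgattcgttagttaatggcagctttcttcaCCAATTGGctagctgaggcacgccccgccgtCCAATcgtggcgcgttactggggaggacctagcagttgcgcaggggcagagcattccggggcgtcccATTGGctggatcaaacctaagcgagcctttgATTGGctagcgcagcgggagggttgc
Mki67: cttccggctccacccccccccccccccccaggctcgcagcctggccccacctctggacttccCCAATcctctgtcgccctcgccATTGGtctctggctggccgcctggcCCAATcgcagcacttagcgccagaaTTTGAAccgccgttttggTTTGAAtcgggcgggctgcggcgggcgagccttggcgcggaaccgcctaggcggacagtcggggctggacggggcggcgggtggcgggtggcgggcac

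The Top2a stretch of 250 bases held 6 matches to the CCAAT box and 4 to the CHR, that of Mki67 held 3 and 2, and the 219 bases of Ube2c held 6 and 0. Overlapping matches, as in the CCAATTGG of Ube2c, were counted separately. RefSeq promoters of 31 of the 37 members were matched, 33 promoters in all, and the 250 bases before the RefSeq start were searched whole. The GENCODE annotation places some starts earlier, as for Ube2c, whose searched window held 1 CHR match in the bases left out of the printed stretch. The unmatched members were Aurkb, Ccna2, Ccnd1, Mcm4, Smc4 and Tpx2. A CCAAT box was present in 84.8% of the 33, against 33.8% of all 32851 promoters of that length, and a CHR match in 30.3% against 17.1%. Both elements were present in 30.3% against 6.02%. A match is a run of letters and was not tested for binding.

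Whether the reads came from neural progenitors, as the name of the list says, cannot be read from whole tissue. The 37 genes gathered 102500 reads over the 47 libraries, 522 to 4590 per library, a median of 0.0212% of a library's counts. The 8 members with the most reads, Ccnd1, Mcm6, Rrm1, Mcm4, Pcna, Smc2, Ccna2 and Smc4, supplied 72.7% of these reads, and 21 members had reads in every library. The 14 members that averaged under 1 CPM supplied 2.65%. Top2a, Ube2c, Ccnb1, Bub1 and Cdk1, which are transcribed mainly in cells passing through G2 and mitosis, were all among those 14. The genes are called S-phase and mitosis genes below.

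Per kb of exon, on the scale of CPM divided by the length of all annotated exons, the levels of members ran from 8.43 for Ccnd1 and 7.52 for Pcna, the sliding clamp, down to 0.0174 for Ccnb1, the cyclin that drives entry into mitosis. Helicase subunits Mcm4 (5.22) and Mcm6 (5.17) followed Pcna and lay next to each other in the order. The highest values among mitosis genes were those of Ccna2, a cyclin of S phase and G2, at 2.69, and the condensin subunit Smc2 at 2.54. Mki67, a protein of the surface of mitotic chromosomes, lay at 0.179 and Top2a, the topoisomerase that untangles sister chromatids, at 0.0757, in position 30 of 37. Ccna2, Ncapg, Mcm7, Cdca8, Prc1, Tk1 and Cdc20 share exon bases with a gene of the opposite strand that had more reads than they did, for Ccna2 510 bases with Exosc9 (19484 reads against 5319) and for Ncapg 944 bases with Lcorl (21377 against 2475). Without strand such reads cannot be told apart, so the levels and differences of these 7 are uncertain. Low members were counted from few molecules: Top2a had 336 reads in the 47 libraries, Ube2c 54 and Ccnb1 38.

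**Figure D1:**
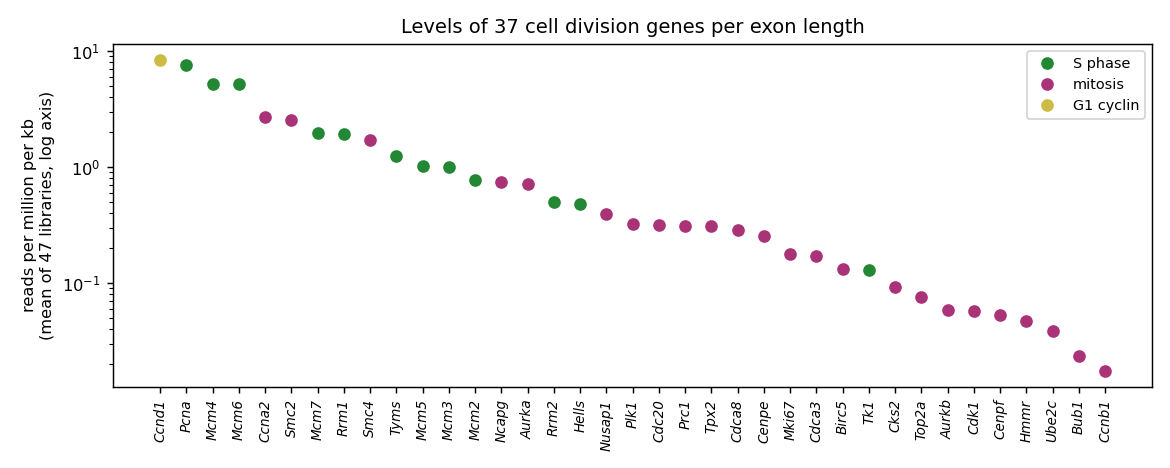
Levels of the 37 genes, as mean CPM per kb of exon over 47 libraries on a log axis, coloured by role. Ccnd1 (8.43) and S-phase genes hold the 4 highest positions, mitosis genes hold the 9 lowest, down to 0.0174 for Ccnb1, and both roles mix between.

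The comparison of Old Veh with Young Veh asks how division genes differed with age in mice that received vehicle. Among the 26 members tested, 1 fell and none rose (edgeR quasi-likelihood test, Benjamini-Hochberg adjusted p below 0.05 over all 17778 genes), where 2.77% of all genes were called. The member that fell was Top2a. Another 6 members had an unadjusted p below 0.05, which makes 7 of 26, where 15.2% of all genes did. Of these, Mcm6, Cenpf, Smc4 and Mcm7 were lower, and Mki67 and Ccnd1 were higher. The median log2 fold change of the 26 was -0.04, beside -0.01 over all genes. Of the 26, 19 lay below 0, where 54.7% of all genes did.

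Top2a (chromosome 11, minus strand) ranged from 0.246 to 2.68 CPM around a median of 1.11 in Young Veh and from 0.351 to 1.29 around 0.840 in Young PF4. It ranged from 0 to 0.728 CPM around a median of 0.270 in Old Veh and from 0.116 to 0.762 around 0.299 in Old PF4. All 12 Old Veh libraries were under the Young Veh median, and 6 of them were under every Young Veh library. The ranges still overlapped.

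Top2a fell by 1.76 on the log2 scale in Old Veh (SE 0.32, adjusted p = 0.00045, edgeR), with 163 reads in the 13 Young Veh libraries and 32 in the 12 Old Veh libraries. The means were 1.13 ± 0.627 CPM (SD, n = 13) and 0.306 ± 0.264 (SD, n = 12). Old Veh libraries were shallower, with a median of 7730492 counts against 12203163, and the 3 Old Veh libraries with no Top2a read held 3656530, 4963272 and 10439446 counts. Without the 8 libraries under 5000000 counts the log2 fold change was -1.73 (adjusted p = 0.00335). Top2a entered the test through young libraries alone: 8 Young Veh and 4 Young PF4 libraries were above the filter's 0.964 CPM and no old library was, which makes 12 where 10 were needed. With no count filter the log2 fold change was -1.77 (adjusted p = 0.00079). With these 2 groups fitted alone Top2a did not pass the filter, and DESeq2 gave -1.81 (unadjusted p = 2.7e-07) with no adjusted p.

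In mice that received PF4, Top2a was lower in Old PF4 than in Young PF4 by a log2 fold change of -1.06 (SE 0.33), which did not pass the test (adjusted p = 0.201, unadjusted p = 0.00252, edgeR). All 10 Old PF4 libraries were under the Young PF4 median and 6 were under every Young PF4 library. The age difference of Top2a was not shown to differ between treatments (difference of log2 fold changes 0.71, 95% interval -0.26 to 1.67, adjusted p = 1.00). Over both treatments Top2a fell by 1.41 (SE 0.23, adjusted p = 5.25e-05, edgeR). This contrast called 4.71% of all genes and 2 of the 26 members, the other being Ccnd1. Leaving out any single library left Top2a called in Old Veh against Young Veh (25 of 25 fits) and over both treatments (47 of 47).

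**Figure D2:**
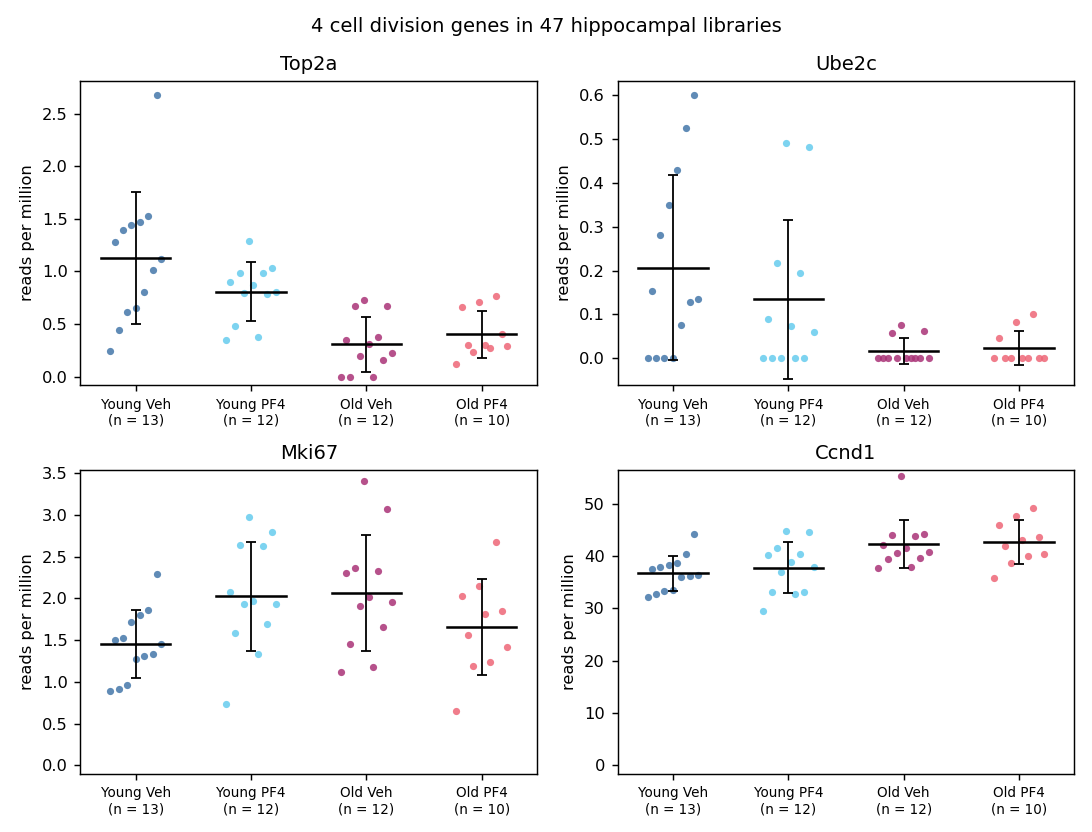
CPM for Top2a, Ube2c, Mki67 and Ccnd1 in each of the 47 libraries (points), with the group mean (line) and SD (error bar), by group. Top2a and Ube2c lie lower in both old groups, with no old library above 0.762 CPM for Top2a, whereas Ccnd1 lies slightly higher and Mki67 shows no common direction.

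The filter left out 11 members with 37 to 340 reads each, and among them Ube2c had the lowest log2 fold change in Old Veh against Young Veh and over both treatments, though not in Old PF4 against Young PF4, where Bub1 (-2.85) and Ccnb1 (-2.65) were lower than Ube2c (-1.90) and none was called. Ube2c is the ubiquitin-conjugating enzyme that serves the anaphase-promoting complex. It had 32 reads in Young Veh, 16 in Young PF4, 3 in Old Veh and 3 in Old PF4, and at least 1 read in 9 of 13, 7 of 12, 3 of 12 and 3 of 10 libraries. The highest old library reached 0.101 CPM and the highest young library 0.600, so the groups overlapped at 0. Pooled over libraries, the Ube2c rate in Old Veh was 0.138 times that in Young Veh (exact 95% counting interval 0.0271 to 0.442), and in Old PF4 0.214 times that in Young PF4 (0.0400 to 0.749).

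With no count filter, 27514 genes were tested and 1.45% were called in Old Veh against Young Veh. Ube2c was then called, with a log2 fold change of -2.52 (SE 0.67, adjusted p = 0.0366, edgeR). Over both treatments, where 2.71% of genes were called, Ube2c was at -2.21 (SE 0.49, adjusted p = 0.00494). DESeq2 gave Ube2c no adjusted p in either comparison (unadjusted p = 0.00436 and 0.000528) and so did not call it. Ube2c shares 592 exon bases with Tnnc2 on the opposite strand, and the library kit kept no strand, but Tnnc2 had only 3 reads in all.

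Ccnb1, Bub1 and Cdk1 did not pass that unfiltered test over both treatments. Ccnb1 was at -1.69 (adjusted p = 0.108), with 11 reads in Young Veh, 21 in Young PF4, 4 in Old Veh and 2 in Old PF4. Bub1, a kinase of the spindle checkpoint, was at -1.41 (adjusted p = 0.141). Its reads numbered 20, 16, 14 and 1 in the same order, so that the low old value came from Old PF4. Cdk1, the kinase that Ccnb1 activates, was at -0.89 (adjusted p = 0.221), with 59, 42, 23 and 17 reads. In the same unfiltered contrast the remaining 7 were Aurkb (-0.67) and Cdca3 (-0.22), and Plk1, Cdc20, Birc5, Hmmr and Cks2, which lay between -0.14 and -0.03, with no call among them.

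Among the mitosis genes that were tested, Mki67 was not called in any comparison. Mki67 ranged from 0.892 to 2.29 CPM around a median of 1.46 in Young Veh, from 0.739 to 2.97 around 1.95 in Young PF4, from 1.11 to 3.40 around 1.99 in Old Veh and from 0.646 to 2.68 around 1.69 in Old PF4. All groups overlapped. The log2 fold change was 0.47 in Old Veh against Young Veh (SE 0.19, adjusted p = 0.191) and -0.31 in Old PF4 against Young PF4 (SE 0.20, adjusted p = 0.738), and neither passed the edgeR test.

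The spindle and kinetochore genes had lower median levels in Old Veh than in Young Veh in several cases, without a call. Cenpf, a kinetochore protein, had a median of 0.942 CPM in Young Veh and 0.606 in Old Veh (log2 fold change -0.56, SE 0.26, adjusted p = 0.30). Cdca8, a subunit of the chromosomal passenger complex, was at -0.32 and Nusap1, which binds spindle microtubules, at -0.31. The motor Cenpe, the midzone protein Prc1, and Aurka with its activator Tpx2 lay between -0.18 and -0.01.

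Condensin, the complex that compacts chromosomes, was read in every library. Smc4 had medians of 9.37, 8.98, 8.08 and 8.48 CPM in Young Veh, Young PF4, Old Veh and Old PF4, and 11 of 12 Old Veh libraries lay under the Young Veh median (log2 fold change -0.22, SE 0.09, adjusted p = 0.185). Its partner Smc2 lay in the other direction, with means of 13.3, 13.4, 14.1 and 14.9 CPM (log2 fold change 0.08, SE 0.09, adjusted p = 0.708). Ncapg, another condensin subunit, was at -0.01. Ccna2 had medians of 11.3, 11.2, 10.5 and 11.2 CPM and a log2 fold change of -0.06 (SE 0.08, adjusted p = 0.766).

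None of the 12 S-phase genes was called in any of the 6 comparisons. Mcm6 came nearest. It ranged from 22.4 to 29.6 CPM around a median of 26.4 in Young Veh, from 19.2 to 30.6 around 26.2 in Young PF4, from 18.3 to 28.7 around 21.8 in Old Veh and from 19.1 to 29.8 around 21.7 in Old PF4. The medians of both old groups were lower and the ranges overlapped widely. The log2 fold change over both treatments was -0.18 (SE 0.06, adjusted p = 0.0567, edgeR), and DESeq2 called it (adjusted p = 0.0439), as did 12 of 47 edgeR fits that each left out 1 library and the fit with a choroid plexus score as a covariate (-0.22, adjusted p = 0.0432).

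The other helicase subunits were not called in Old Veh against Young Veh. Mcm7 was at -0.17 (SE 0.07, adjusted p = 0.233), Mcm5 at -0.12, Mcm4 at -0.04, Mcm2 at -0.02 and Mcm3 at 0.12. The neighbours of Mcm7 on the opposite strand are Cops6 and Ap4m1. Pcna had medians of 17.6, 18.0, 17.8 and 17.6 CPM in Young Veh, Young PF4, Old Veh and Old PF4, with a log2 fold change of -0.00 (95% interval -0.14 to 0.13).

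Among the enzymes of DNA precursor synthesis, Rrm1, the large subunit of ribonucleotide reductase, had means of 21.1, 21.6, 20.6 and 21.1 CPM in the same order. Its log2 fold change was -0.02 (95% interval -0.16 to 0.11). Its small subunit Rrm2, present at a much lower level of 1.37 CPM on average, was at -0.39 (SE 0.24, adjusted p = 0.444). Tyms, which makes thymidylate, was at 0.12, and Tk1, which salvages thymidine, at 0.11. Hells, a chromatin remodeller, was at 0.06.

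Ccnd1, the cyclin that pairs with Cdk4 and Cdk6 in G1, was the member with the most reads and the only member called higher. It ranged from 32.3 to 44.2 CPM around a median of 36.3 in Young Veh, from 29.5 to 44.8 around 38.5 in Young PF4, from 37.8 to 55.3 around 41.2 in Old Veh and from 35.8 to 49.3 around 42.5 in Old PF4. All 12 Old Veh libraries were above the Young Veh median, and 9 of 10 Old PF4 libraries were above that of Young PF4, with overlapping ranges. Over both treatments Ccnd1 rose by 0.20 (log2 fold change, SE 0.05, adjusted p = 0.00677, edgeR).

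Within each treatment the log2 fold change of Ccnd1 was nearly the same, 0.20 in vehicle (adjusted p = 0.067) and 0.19 in PF4 (adjusted p = 0.349), and neither passed the test by edgeR. DESeq2 called it in vehicle (adjusted p = 0.0488), as did edgeR without Young Veh replicate 2 (adjusted p = 0.0369). Without the 8 libraries under 5000000 counts the value over both treatments was 0.17 and was no longer called (adjusted p = 0.0574). Ccnd1 shares 1100 exon bases with LTO1 on the opposite strand, a gene with 13082 reads against 18849 for Ccnd1, and without strand their reads cannot be told apart there.

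**Figure D3:**
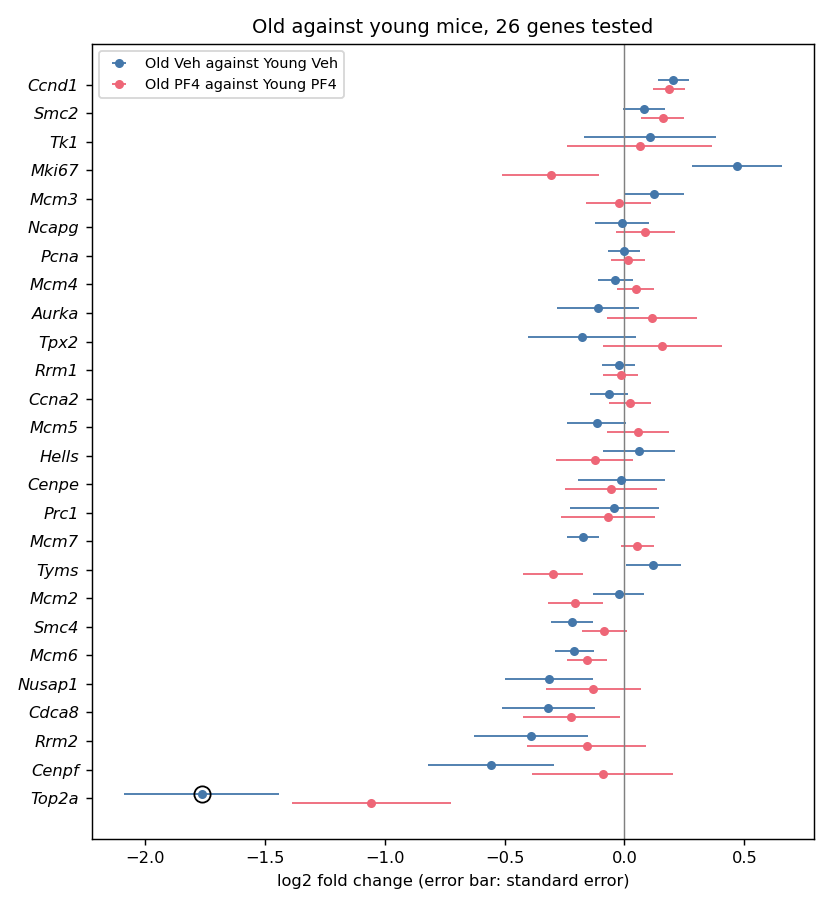
Log2 fold change with its standard error for the 26 tested genes, old against young, in mice given vehicle (blue) and PF4 (red), ordered by the value over both treatments. A black ring marks an adjusted p below 0.05, which only Top2a in Old Veh against Young Veh has (-1.76), and most other values lie close to 0.

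In Old PF4 against Young PF4, 0 of 26 members were called by edgeR, where 0.332% of all genes were called. DESeq2 called 0 as well, and 3 of 26 members had an unadjusted p below 0.05, where 8.27% of all genes did: Top2a, Ccnd1 and Tyms. Tyms was at -0.30 (SE 0.12, adjusted p = 0.47). The median log2 fold change of the 26 was -0.04, beside 0.00 over all genes.

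The comparisons of PF4 with vehicle at each age ask whether the treatment was accompanied by a change in division genes. In Old PF4 against Old Veh, 0 of 26 members were called by edgeR, where 0.0337% of all genes were called. That share is 6 genes, and leaving out 1 library gave from 0 genes (in 9 of 22 fits) to 20 (without Old Veh replicate 11). DESeq2 called 0 members, and 2 of 26 members had an unadjusted p below 0.05, where 6.2% of all genes did, Mcm7 (log2 fold change 0.20, SE 0.07, adjusted p = 0.631) and Tyms (-0.27, SE 0.13, adjusted p = 0.767). Top2a was at 0.41 with a 95% interval of -0.40 to 1.21, which leaves room for a higher as well as a lower level. For the members with many reads the interval was narrow: Ccnd1 lay between -0.12 and 0.16 and Rrm1 between -0.10 and 0.19.

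In Young PF4 against Young Veh, 0 of 26 members were called by edgeR, where 0% of all genes were called. DESeq2 called 0, and 1 of 26 members had an unadjusted p below 0.05, where 1.2% of all genes did. This was Mki67, at 0.41 (SE 0.19, adjusted p = 1.00). Top2a was at -0.30 (95% interval -0.83 to 0.22). The difference of the PF4 effect between ages was called for 0 of 26 members, again where 0% of all genes were called, by edgeR and 0 by DESeq2. It had an unadjusted p below 0.05 for 3 of 26 members, where 3.98% of all genes did: Mki67 (-0.78, SE 0.28), Tyms (-0.42, SE 0.17) and Mcm7 (0.23, SE 0.10).

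**Figure D4:**
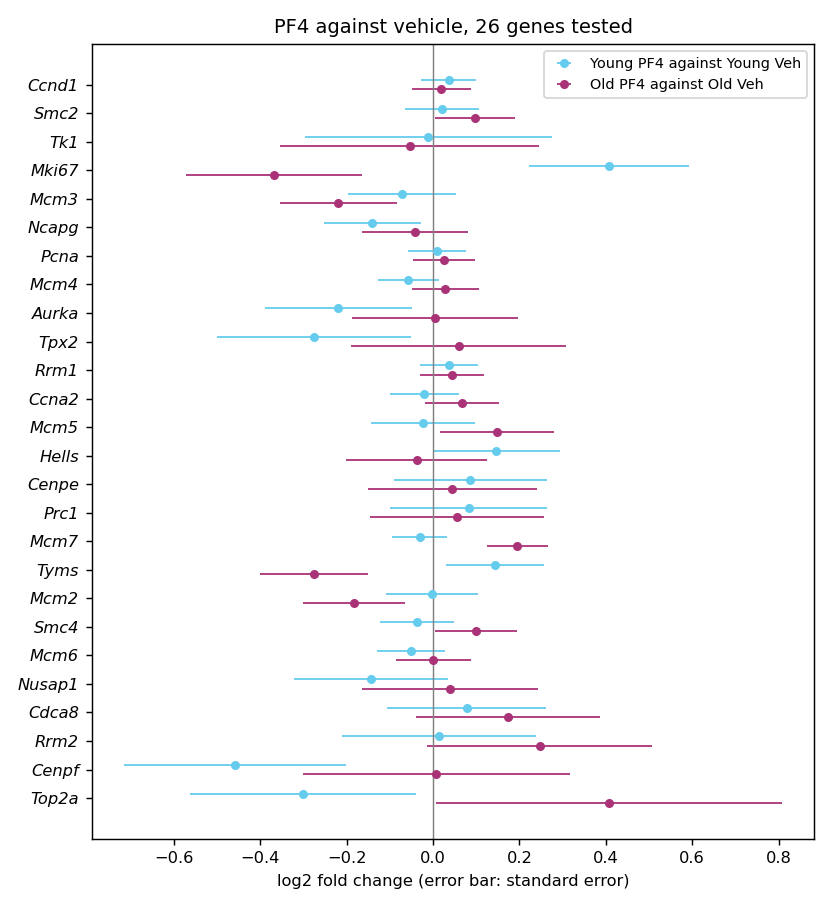
Log2 fold change with its standard error for the 26 tested genes, PF4 against vehicle, in young (light blue) and old (purple) mice, in the order of the plot of age differences. No gene has an adjusted p below 0.05, and the standard errors are widest for genes with few reads, such as Top2a (0.41 in old mice, SE 0.40).

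Summed over all 37 genes, reads per library differed between group means by less than the SD. The sum ranged from 199 to 235 CPM around a median of 213 in Young Veh, from 204 to 230 around 212 in Young PF4, from 197 to 227 around 210 in Old Veh and from 198 to 232 around 212 in Old PF4. The mean was 4.59 CPM lower in Old Veh (210 ± 9.13, n = 12) than in Young Veh (214 ± 11.1, n = 13) and 3.36 CPM higher in Old PF4 (213 ± 8.95, n = 10) than in Old Veh (error values are SD), or 1.33 CPM higher without Old PF4 replicate 8. Without Ccnd1 the sum was 178 ± 9.46 CPM in Young Veh and 168 ± 10.2 in Old Veh (SD), lower by 10.2 CPM. In that sum 6 of 12 Old Veh libraries lay under every Young Veh library. Ccnd1 has the most reads and was higher over both treatments, with means of 36.7 CPM in Young Veh and 42.3 in Old Veh. Leaving Ccnd1 out therefore had to widen the difference, and the widening is not a separate result. The remaining sum includes Mcm6, which was not called in Old Veh against Young Veh. No p is given for a sum over chosen genes.

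The sum of the 24 mitosis genes had medians of 59.2, 57.3, 54.0 and 56.1 CPM in Young Veh, Young PF4, Old Veh and Old PF4. Its means were 58.1 ± 2.93 in Young Veh and 54.0 ± 2.89 in Old Veh (SD), a difference larger than the SD. All 12 Old Veh libraries lay under the Young Veh median, and 8 of 13 Young Veh libraries lay above every Old Veh library. Most of the sum came from Smc2, Ccna2, Smc4 and Ncapg, and the levels of Ccna2 and Ncapg are uncertain without strand. From Young Veh to Old Veh the mean of Smc4, which was not called, went from 9.42 to 7.99 CPM and that of Top2a from 1.13 to 0.306. Of the 13 mitosis genes tested, 11 were below 0 and 2 above. Between Old PF4 (56.4 ± 4.71) and Young PF4 (57.4 ± 4.20) the means differed by less than the SD, by 1.07 CPM. Old PF4 replicate 8 stood apart at 67.9 CPM, and without it the Old PF4 mean was 55.1 ± 2.57 (SD, n = 9), 2.35 CPM below Young PF4 and still less than the SD of Young PF4. The sum of the 12 S-phase genes had medians of 119, 118, 112 and 116, and means of 120 ± 8.42 in Young Veh and 113 ± 8.10 in Old Veh (SD), which differed by less than the SD. The sum of the 14 genes under 1 CPM had medians of 6.21, 5.96, 4.54 and 4.80. Its means were 6.47 ± 1.29 and 5.97 ± 1.15 in the young groups and 4.36 ± 1.03 and 4.88 ± 0.870 in the old groups (SD), and the groups overlapped. Top2a (means 1.13 CPM in Young Veh and 0.306 in Old Veh) and Ube2c (0.206 and 0.0164) are among these 14. This sum is therefore not separate from the differences given for those 2 genes. Rescaled to a draw of 2242879 counts, the smallest library, the expected number of members with at least 1 read had medians of 30.4, 30.2, 28.7 and 28.7, beside 34, 35.5, 32.5 and 32.5 members with a read at full depth.

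**Figure D5:**
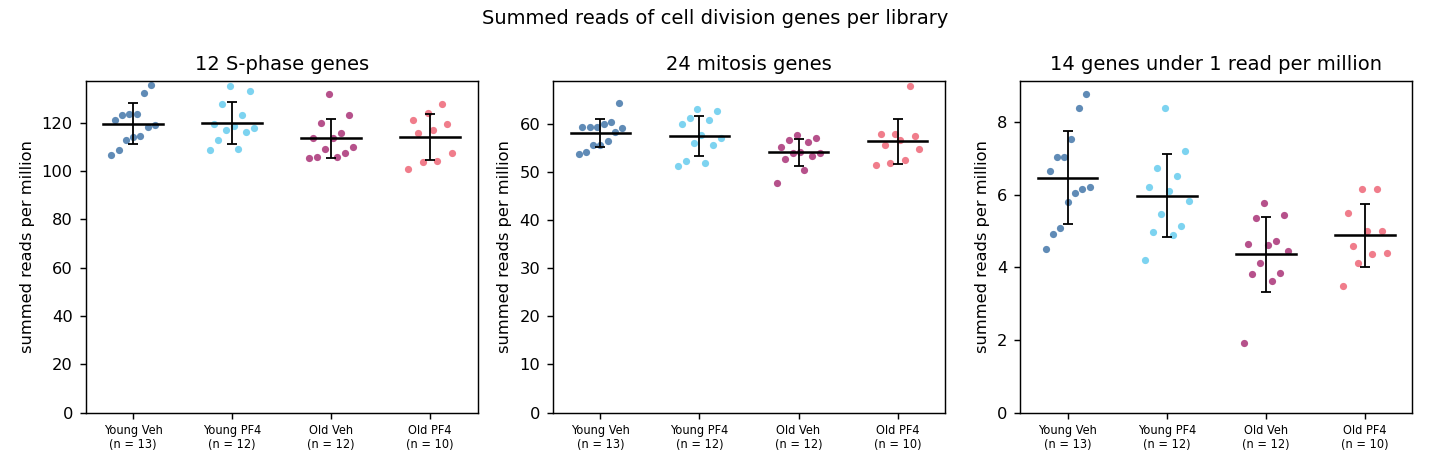
Summed CPM in each of the 47 libraries (points), with group mean (line) and SD (error bar), for the 12 S-phase genes, the 24 mitosis genes and the 14 genes that average under 1 CPM. All 3 sums overlap between groups, and all 12 Old Veh libraries lie under the Young Veh median of the mitosis sum (59.2). The sum of the 14 lowest genes, Top2a and Ube2c among them, has a median of 6.21 in Young Veh and 4.54 in Old Veh.

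Other genes of the same pathway were read from longer lists. Of 37 further S-phase genes 29 were tested and 0 were called in any comparison by edgeR, with 0 and 2 at an unadjusted p below 0.05 in Old Veh against Young Veh and over both treatments, where 15.2% and 19% of all genes were, and medians of -0.08 and -0.03. Of 57 further mitosis genes 32 were tested, 21 of them below 0 in Old Veh against Young Veh (median -0.04), where 54.7% of all genes were, with 1 call in each direction, where 2.16% of all genes were called higher and 0.607% lower. Racgap1, which acts at the spindle midzone in cytokinesis, was lower in Old Veh (log2 fold change -0.45, adjusted p = 0.0169), but was not called over both treatments (-0.23, adjusted p = 0.0943) and was at -0.01 in Old PF4 against Young PF4. Anln, a scaffold of the contractile ring that myelinating oligodendrocytes also express strongly, was higher (0.26, adjusted p = 0.0236) and was called in all 3 age contrasts. Of 29 G1 regulators and inhibitors 28 were tested, in a list with a median of -0.03 over both treatments. Ccnd2, the D-type cyclin of progenitors, was lower over both treatments (-0.19, adjusted p = 0.0122). It was the only call among the 28, where 1.41% of all genes were called lower.

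Markers of the cells that could carry these reads gave few calls, except those of microglia. Their part in the values above was not tested. Of 15 markers of neural stem cells and progenitors 12 were tested. Prom1 alone was lower in Old Veh (log2 fold change -0.37, adjusted p = 0.00518), where 0.607% of all genes were called lower. There 9 of 12 lay below 0 (median -0.09, lowest -1.21), where 54.7% of all genes did. In Old PF4 against Young PF4 8 of 12 lay above 0 (median 0.02) and none was called. Over both treatments 7 of 12 lay below 0 (median -0.005), and Prom1 was called. The summed markers ranged from 189 to 255 CPM in Young Veh and from 183 to 233 in Old Veh. Of 11 markers of immature neurons 10 were tested, and Tubb3 (-0.14) and Fxyd7 (-0.19) were lower over both treatments, where 1.41% of all genes were, in a list with 8 of 10 below 0 and a median of -0.15. In Old Veh against Young Veh none of these 10 was called, 8 were below 0 (median -0.16, lowest -1.13) and 6 had an unadjusted p below 0.05, where 15.2% of all genes did. Dcx, the defining marker, was at 0.01 over both treatments (adjusted p = 0.959). Of 11 markers of oligodendrocyte precursors, Gpr17 alone was lower in Old Veh (-0.56, adjusted p = 0.00205), where 0.607% of all genes were called lower. The list had 5 of 11 above 0 there and a median of -0.01. In Old PF4 against Young PF4 and over both treatments 9 of 11 lay below 0 (medians -0.07 and -0.04). Gpr17 was called over both treatments (adjusted p = 0.000123, edgeR), and no precursor marker was called in Old PF4 against Young PF4.

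Of 9 microglia markers 6 were higher over both treatments, where 3.31% of all genes were, with C1qa at 0.35 and a median of 0.24, and their sum ranged from 366 to 452 CPM in Young Veh and from 398 to 532 in Old Veh. None of 8 endothelial markers was called, with 0 at an unadjusted p below 0.05 in any age comparison. Mia, of 7 ependymal markers, was lower (-1.02 in Old Veh, adjusted p = 0.0295), where 0.607% of all genes were called lower. All 7 were below 0 in Old Veh against Young Veh (median -0.36) and over both treatments (median -0.20), where 54.7% and 52% of all genes were. Ptprc, of 3 blood and lymphocyte markers tested out of 10, was higher over both treatments (0.42, adjusted p = 0.0235), where 3.31% of all genes were called higher.

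The 10 choroid plexus markers, which report how much of that tissue came along in dissection, summed to 12.1 to 4053 CPM in Young Veh (median 1950) and 15.1 to 4301 in Old Veh (median 47.2), and the medians were 2407 in Young PF4 and 66.1 in Old PF4. All 10 were below 0 in all 3 age contrasts, with a median log2 fold change of -0.98 over both treatments, where 6 of 10 had an unadjusted p below 0.05 and none was called (smallest adjusted p = 0.089). None of the 10 was at 0 in any group. With their score as a covariate Top2a was at -1.59 in Old Veh against Young Veh (adjusted p = 0.00357, edgeR) and Ccnd1 at 0.18 over both treatments (adjusted p = 0.0379).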

How the data were processed

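RNA was sequenced from the hippocampus of 47 mice by Smart-Seq2 and Nextera XT without strand. The deposited values are whole-number counts per gene to which the authors applied no normalization. Their processing notes name Trim Galore 0.3.7, STAR 2.5.3a, GRCm38 and DESeq2. The counter and annotation are not given in the sources used here. Groups follow the age and treatment in the labels.

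Counts of 35486 genes were fitted with edgeR 4.0.16 (R 4.3.3, quasi-likelihood test, TMM, filterByExpr) over the 4 groups, with 6 contrasts and Benjamini-Hochberg adjustment over 17778 genes, calling below 0.05. The paper's methods name DESeq2, run here (1.42.0) as an alternative. Intervals of log2 fold changes use the fit's t quantiles (95%). CPM is counts per 1000000 of the library total. Exon lengths are from GENCODE vM21. Scripts were tested on simulated data. Other settings were DESeq2 size factors in edgeR, no count filter, a replicate block, libraries of at least 5000000 counts, a choroid plexus covariate, groups compared alone, and each library left out.

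The members and lists were chosen with earlier results of these data known. Named in full are members called in any contrast, the 8 with the most reads, Top2a and Mki67. Ube2c, the sum over members under 1 CPM and the sums without Old PF4 replicate 8 were added after their values were seen, and genes of other lists are named where called. Among 255 pairs of libraries within groups the smallest chi-square per degree of freedom was 1.95, so none agreed within sampling noise. Each library was taken as 1 mouse, and p-values measure the spread between these mice.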

Additional observations from a re-analysis of the deposited data

Results flagged for a closer look

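Among 13 values examined in Old PF4, the only group of 10 or fewer mice, 1 library stood apart. The summed reads of the 24 mitosis genes were 67.9 CPM in Old PF4 replicate 8, and the next highest Old PF4 library had 57.9 (a gap of 0.610 of the group's range, above Dixon's 95% critical value). The same library had the highest level of Smc2 in its group, 19.8 CPM. Chance flags about 1 in 20 values examined in this way, and 13 were examined.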

How the results depend on the processing

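In Old Veh against Young Veh, where 1 member was called, 2 were called with no count filter (Top2a and Ube2c) and 0 with these groups compared alone, where Top2a did not pass the count filter. Leaving out 1 library gave 1 to 2. The 2 came without Young Veh replicate 2, when Ccnd1 was called as well (0.23, adjusted p = 0.0369). Over both treatments, where 2 members were called, 1 was called without the 8 libraries under 5000000 counts. It was 3 with DESeq2 and with the choroid plexus covariate, which added Mcm6, and with no count filter, which added Ube2c. Leaving out 1 library gave 2 to 3, the third being Mcm6. Counts in the remaining 4 contrasts stayed at 0 in every setting that was run. DESeq2 gave 1 call in Old Veh against Young Veh, which was Ccnd1 (adjusted p = 0.0488). For Top2a its log2 fold change was -1.81 with p = 2.7e-07, and its adjusted p was set to NA by DESeq2's own filter on low means.

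The log2 fold change of Top2a in Old Veh ranged from -1.93 to -1.61 when single libraries were left out. Same-numbered mice did not deviate together (21 of 66 pairs correlated above 0.1, median -0.0063), and with a replicate block the members called were 1 and 2 in these contrasts. Over all genes, 492 were called in Old Veh against Young Veh and 176 without the 8 shallow libraries, and over both treatments 838 and 437. In Old PF4 against Old Veh edgeR called 6 and DESeq2 24. The cause was not tested. Depth limits members with few reads: 11 of 37 did not pass the count filter.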
